A study of Mus musculus with 6 samples.

Results

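The transcripts described here are those of the core circadian clock in cultured fibroblast-like synoviocytes of the mouse, cells that line the joint and make its matrix. A list of 10 clock genes was matched to the array's probe sets by gene symbol, and 9 of them had a probe set with a single symbol: Arntl (also called Bmal1), Clock, Npas2, Per1, Per3, Cry1, Cry2, Nr1d1 and Nr1d2. Per2 shares its probe set with another symbol in the platform annotation and was not analysed here. The 9 are part of 22180 genes tested. The cells were grown from knee synovium of C57BL6 mice, used between passages 4 and 8, exposed to an adenovirus for 2 h at a multiplicity of infection (infectious virus units offered per cell) of 800, and kept for 24 h. On 3 arrays the virus was empty (Mock), and on 3 it carried Epas1 (Ad-Epas1), so both groups had been infected. The product of Epas1 is HIF-2alpha, a transcription factor that accumulates when oxygen is low. All arrays came from a single time after infection, so a change of level and a shift in the phase of a rhythm cannot be told apart.

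The mammalian clock is a transcriptional feedback loop that runs in most cells, fibroblasts and joint tissues included. The bHLH-PAS proteins BMAL1 (from Arntl) and CLOCK, or its relative NPAS2, pair and bind E-boxes in DNA, where they switch on the Per, Cry and Nr1d genes. PER and CRY proteins then inhibit that pair, while NR1D1 and NR1D2 (REV-ERB alpha and beta) repress Arntl through ROR response elements (ROREs) that ROR proteins activate. PAR bZIP proteins such as DBP act on D-boxes, which NFIL3 represses. HIF-2alpha belongs to the same bHLH-PAS family as BMAL1, CLOCK and NPAS2, and HIF proteins bind a hypoxia response element (HRE) whose core letters are shared with the E-box.

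Promoter windows from RefSeq (GRCm38.p6, 250 bases before to 50 after an annotated gene start) are shown for 4 members. That of Nfil3 was added after its array values were seen. Between them the windows hold examples of each clock motif searched: the RORE, the E′-box, the E-box and the D-box. They are written 5′ to 3′ on the gene's strand, with E-box, E′-box, D-box and RORE matches in capitals.
Arntl (chr7:113207261-113207560, plus strand): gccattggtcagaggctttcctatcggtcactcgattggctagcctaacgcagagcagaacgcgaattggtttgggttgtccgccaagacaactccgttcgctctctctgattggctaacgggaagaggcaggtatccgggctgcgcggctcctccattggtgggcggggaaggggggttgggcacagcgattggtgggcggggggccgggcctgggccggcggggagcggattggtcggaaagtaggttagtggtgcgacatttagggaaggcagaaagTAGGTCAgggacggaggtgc
Nfil3 (chr13:52980990-52981289, minus strand): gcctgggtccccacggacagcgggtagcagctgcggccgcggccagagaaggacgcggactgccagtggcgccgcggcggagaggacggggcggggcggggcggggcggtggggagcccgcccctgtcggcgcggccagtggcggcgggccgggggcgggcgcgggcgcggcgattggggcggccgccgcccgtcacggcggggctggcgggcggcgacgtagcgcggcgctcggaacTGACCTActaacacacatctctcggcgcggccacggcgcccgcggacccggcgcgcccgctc
Nr1d1 (chr11:98775328-98775627, minus strand): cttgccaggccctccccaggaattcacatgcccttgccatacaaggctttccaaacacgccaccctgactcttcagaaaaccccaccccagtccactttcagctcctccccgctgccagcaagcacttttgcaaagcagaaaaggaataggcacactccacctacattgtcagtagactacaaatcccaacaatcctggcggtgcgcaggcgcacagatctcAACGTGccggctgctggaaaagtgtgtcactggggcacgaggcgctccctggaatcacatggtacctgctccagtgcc
Per1 (chr11:69098699-69098998, plus strand): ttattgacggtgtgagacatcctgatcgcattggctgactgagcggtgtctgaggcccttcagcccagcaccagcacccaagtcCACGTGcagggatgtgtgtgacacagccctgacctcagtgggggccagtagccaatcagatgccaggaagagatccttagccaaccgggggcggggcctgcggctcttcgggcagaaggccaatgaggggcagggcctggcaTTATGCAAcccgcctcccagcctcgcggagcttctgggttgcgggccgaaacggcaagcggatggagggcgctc
Per3 (chr4:151044616-151044915, minus strand): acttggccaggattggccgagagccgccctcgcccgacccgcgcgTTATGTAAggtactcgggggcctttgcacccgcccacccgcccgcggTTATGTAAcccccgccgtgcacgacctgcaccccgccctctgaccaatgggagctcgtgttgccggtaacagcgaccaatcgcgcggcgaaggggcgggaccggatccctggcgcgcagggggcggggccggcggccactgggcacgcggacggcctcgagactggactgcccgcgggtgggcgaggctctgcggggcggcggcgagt
In Arntl the capitals mark a RORE (TAGGTCA) at position 31 after the second of its annotated starts, and in Nfil3 they mark a RORE on the opposite strand, 12 bases before the start. In Nr1d1 they mark an E′-box (CACGTT on the opposite strand) at -28. In Per1 they mark an E-box (CACGTG) at -166 and a D-box (TTATGCAA) at -24, and in Per3 a pair of D-boxes (TTATGTAA) at -205 and -158.

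The motifs were searched on both strands in 13 windows of the 9 members, matched by symbol, and in 1 window per gene of 27018 promoters. The E-box was found in the windows of 2 members (Per1 and Cry1), against 7.24% of all promoters, and the E′-box in those of 3 (Cry1, Cry2 and Nr1d1), against 4.77%. The D-box (TTATGTAA, TTACGTAA or TTATGCAA) was found in those of Per1 and Per3, against 1.84%. The RORE (TAGGTCA or TGGGTCA) was found only in the second window of Arntl, so that with 1 window per gene, as in the 6.44% of all promoters, 0 members held it. The HRE core (ACGTG or GCGTG) was found in the windows of 8 members, against 43.8% of all promoters, and every E-box or E′-box holds ACGTG on a strand, so that these matches overlap. Dbp and Nfil3, added after their array values were seen, held 3 HRE cores and none, respectively. Bhlhe40, described below, was sought along with them but had no promoter window. The promoters behind these shares were not matched to the members for G and C content, which was 47% to 76.7% in the members' windows. A match describes letters in a window and is no evidence of binding.

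**Figure D1:**
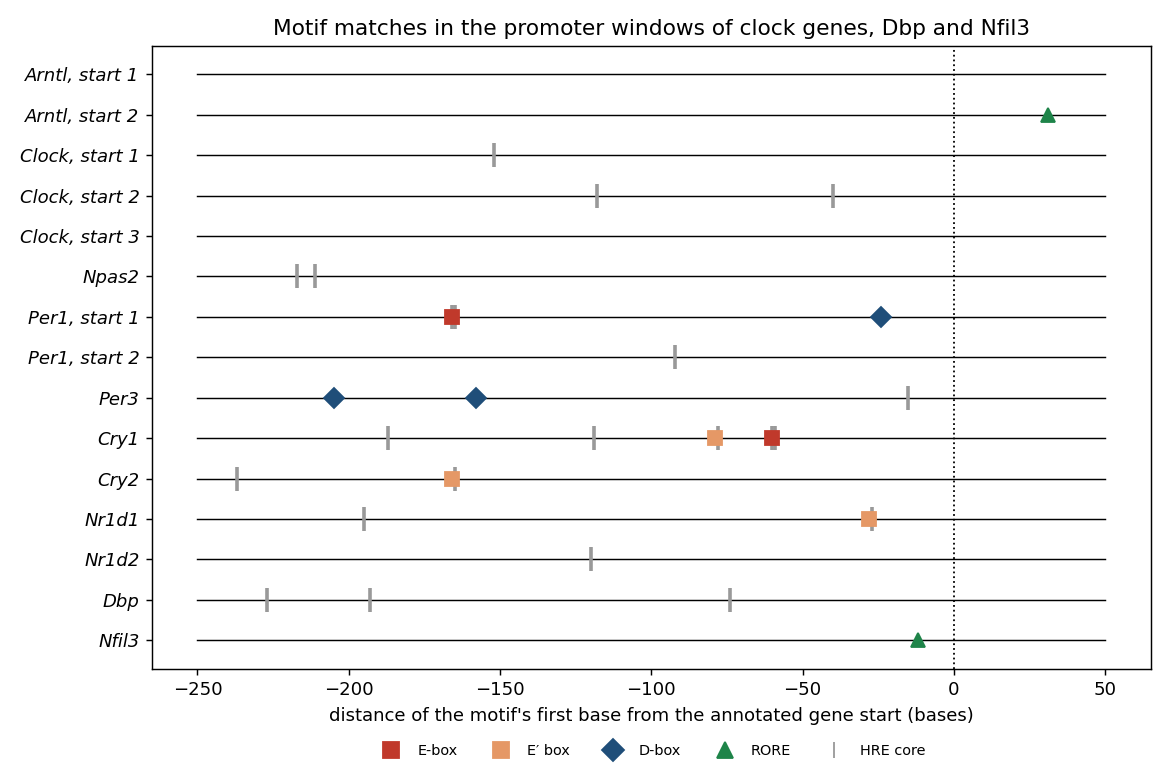
Motif matches in promoter windows of the clock genes, Dbp and Nfil3, with the distance from the annotated gene start in bases on the horizontal axis and 1 line per window. Symbols mark the first base of each match: Arntl has a RORE at 31, Nfil3 a RORE at -12, Per3 D-boxes at -205 and -158, and HRE cores (grey) lie in most windows.

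The values are RMA levels, log2 signals that the authors normalised between arrays, and the number of arrays limits their precision. Epas1 stood at 8.67, 8.71 and 8.51 on the Mock arrays and at 13.14, 13.15 and 13.11 on the Ad-Epas1 arrays, as the labels say. Ad-Epas1 replicate 3 stood apart. The summed level of 16 macrophage markers was 15.41 to 15.68 (log2) on the Mock arrays, 15.53 and 15.33 on Ad-Epas1 replicates 1 and 2, and 11.66 on replicate 3, where 8 of the 16 lay below 6.62, the 95th percentile of olfactory and vomeronasal receptor genes. On the other 5 arrays none of them did, although the labels describe the cells as nearly free of CD14-positive cells. By single genes, 3 of the 16 fell (limma adjusted p under 0.05): Mrc1 (-2.84), C1qa (-2.05) and C1qc (-2.31). These markers of resident macrophages were also lower on Ad-Epas1 replicates 1 and 2 than on any Mock array. The groups did not overlap for 7 of the 16. Both counts are near the shares over all genes in either direction, 16.3% called and 39.7% without overlap. All 3 calls and all 7 separations were falls, however, beside 9.75% of all genes called lower and 4074 of 22180 lower without overlap. The summed level of 12 fibroblast markers was 15.31 to 15.54 on all arrays, but the genes moved apart: Pdpn (0.73) and Prg4 (0.55) rose, Pdgfrb (-1.20), Cdh11 (-1.26) and Col3a1 (-0.89) fell, and 7 did not pass. Of the endothelial markers, 3 of 8 lay below 6.62 on every array. Egfl7 rose (0.41, limma adjusted p = 0.038) and the other 7 did not pass, beside 6.57% of all genes called higher. The groups did not overlap for 5 of the 8 endothelial markers, all higher in Ad-Epas1, beside 4726 of 22180 genes higher without overlap. In such bulk samples, fewer cells of a type and less RNA per cell cannot be told apart. Of 11 measured cell division genes, 10 fell, beside 9.75% of all genes called lower. The part of macrophage RNA and of cell division in the clock results was not tested, and results whose call turned on replicate 3 are also given without it.

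Most core clock transcripts differed between the groups, and they moved in both directions. Arntl, Cry1 and Cry2 rose in Ad-Epas1, Npas2, Per3, Nr1d1 and Nr1d2 fell, and Per1 and Clock did not pass the test (limma, Benjamini-Hochberg adjusted p under 0.05 over all genes). The 7 called members of 9 stand beside 16.3% of all genes called. By direction, 3 members were called higher, beside 6.57% of all genes, and 4 lower, beside 9.75%. The split depended on the scaling: over all genes, 1458 were higher and 2162 lower as deposited, 1732 and 1928 with each array centred on its median, and 1913 and 1731 with a further quantile step, where 3 members were higher and 3 lower. All 9 members lay above the median level of the genes tested. In a separate fit to the genes above that level, adjusted over those genes alone, 32.1% of them were called, and 7 members. The Mock and Ad-Epas1 arrays did not overlap for 8 of the 9 members, against 39.7% of all genes and 52.8% of those above the median level. The median size of the difference, without its sign, was 0.60 (log2) over the members and 0.16 over all genes. Without Ad-Epas1 replicate 3, 8 of the 9 were called, Per1 being the addition, while the count over all genes went from 3620 to 5390. The members' count was 3 without Mock replicate 2, 2 without Mock replicate 3, 4 without Ad-Epas1 replicate 1 and 2 without Ad-Epas1 replicate 2, while the count over all genes was 1187, 1181, 2186 and 1512.

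**Figure D2:**
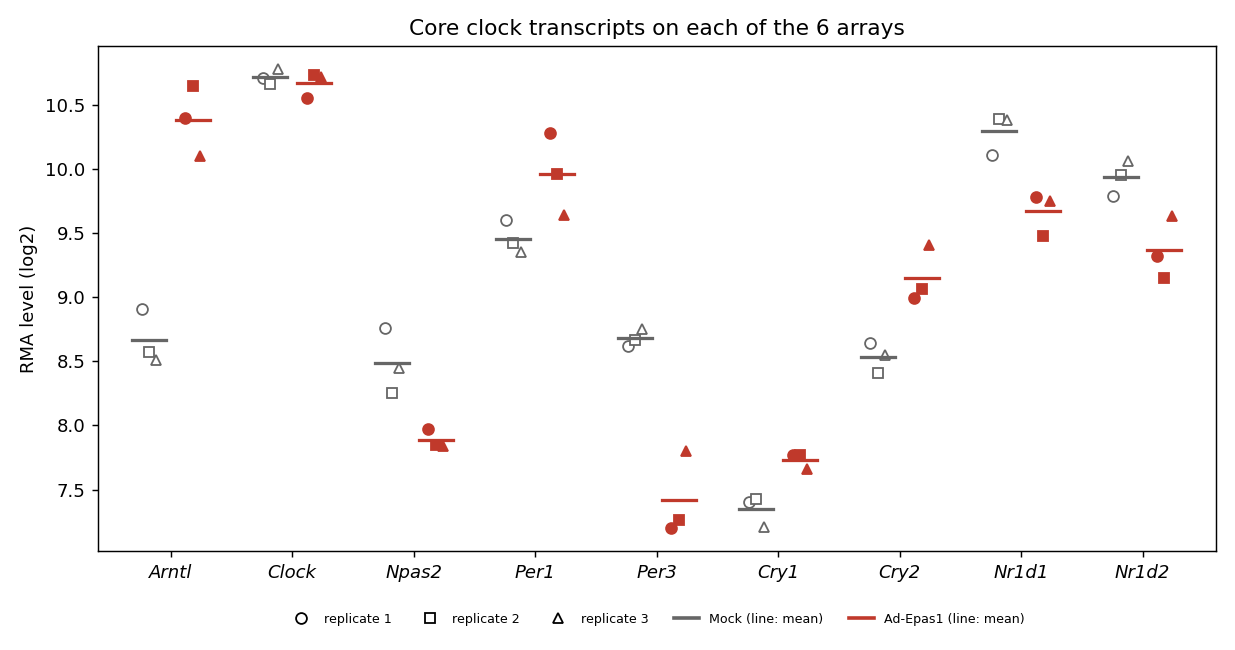
RMA level (log2) of the 9 clock transcripts on each array, with open grey symbols for Mock, filled red symbols for Ad-Epas1, a symbol shape per replicate number and lines at the group means (n = 3). Arntl rises from about 8.66 to 10.38 and Per3 falls from 8.68 to 7.42, while the groups of Clock overlap.

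In the activating arm, Arntl and Npas2 moved apart and Clock showed no detectable change. Arntl, which encodes the obligate partner of CLOCK and NPAS2, had levels of 8.91, 8.57 and 8.51 on Mock replicates 1, 2 and 3 and of 10.4, 10.65 and 10.1 on the Ad-Epas1 arrays, the order used throughout. Every Ad-Epas1 array lay above every Mock array, the nearest pair being 1.19 apart. Arntl rose 3.29-fold (log2 fold change 1.72, SE 0.17, limma adjusted p = 0.0022), the 85th largest rise of the 22180 genes. It was called with any single array left out, at log2 fold changes of 1.59 to 1.86 (adjusted p up to 0.018), the upper value being that without Ad-Epas1 replicate 3. Of its 2 promoter windows, that of the second annotated start holds the RORE shown above.

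Npas2 encodes a CLOCK-like protein that can take CLOCK's place in the pair. It stood at 8.76, 8.25 and 8.45 in Mock and at 7.97, 7.85 and 7.84 in Ad-Epas1. The 3 Ad-Epas1 values lay close together and below all Mock values, among which replicate 1 was high. Npas2 fell by 0.60 on the log2 scale (SE 0.13, limma adjusted p = 0.027). Its call was lost without Mock replicate 3 (adjusted p = 0.092), Ad-Epas1 replicate 1 (0.057) or Ad-Epas1 replicate 2 (0.094), and with a further quantile step between arrays. Clock stood at 10.71, 10.66 and 10.78 in Mock and at 10.55, 10.73 and 10.72 in Ad-Epas1. The groups of Clock overlapped, and the difference was -0.05 with a 95% interval from -0.24 to 0.14 (limma adjusted p = 0.71).

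The inhibiting arm was split. Per3, a member of the period family whose protein is not essential for rhythms in mice, fell, both cryptochrome genes rose, and Per1 did not pass. Per3 stood at 8.62, 8.67 and 8.75 in Mock and at 7.2, 7.26 and 7.8 in Ad-Epas1. The Mock values were tightly grouped, and Ad-Epas1 replicate 3 was the least changed of its group while still 0.82 below the lowest Mock array. Per3 was 2.39-fold lower (log2 fold change -1.26, SE 0.16, limma adjusted p = 0.0050), and it was called with any single array left out, at -1.45 to -1.15. At -1.45, the value without Ad-Epas1 replicate 3 was the lower end.

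Per1, an acutely inducible period gene that also answers serum, cAMP and glucocorticoids, stood at 9.6, 9.42 and 9.35 in Mock and at 10.28, 9.96 and 9.64 in Ad-Epas1. The groups did not overlap, but Ad-Epas1 replicate 3 was only 0.04 above Mock replicate 1. The difference was 0.51 (95% interval 0.11 to 0.90, limma adjusted p = 0.084). It passed without Ad-Epas1 replicate 3 (0.67, adjusted p = 0.010), the array low in macrophage transcripts.

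Cry1 and Cry2 encode the cryptochromes, the strongest repressors of the BMAL1 pair. Cry2 stood at 8.64, 8.41 and 8.55 in Mock and at 8.99, 9.06 and 9.41 in Ad-Epas1. Ad-Epas1 replicate 3 was the highest, unlike its place for Per1 and Per3. Cry2 rose 1.54-fold (log2 fold change 0.62, SE 0.13, limma adjusted p = 0.021). Cry1 stood at 7.4, 7.43 and 7.21 in Mock and at 7.77, 7.77 and 7.66 in Ad-Epas1. The rise of Cry1 was smaller, 1.31-fold (log2 fold change 0.39, SE 0.08, limma adjusted p = 0.026), with no overlap of the groups. Without Ad-Epas1 replicate 3 the log2 fold changes were 0.49 for Cry2 and 0.43 for Cry1. The call of Cry2 ended on omission of replicate 2 (adjusted p = 0.091) or 3 (0.083) of Mock or of replicate 2 of Ad-Epas1 (0.060). Among the fits with 1 array omitted, Cry1 was called only in that without Ad-Epas1 replicate 3, and the other 5 gave adjusted p = 0.051 to 0.091.

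Both REV-ERB genes, which encode the haem-binding nuclear receptors that repress Arntl, fell by similar amounts. Nr1d1 stood at 10.11, 10.39 and 10.38 in Mock and at 9.78, 9.48 and 9.75 in Ad-Epas1. Mock replicate 1 was the lowest Mock array and Ad-Epas1 replicate 1 the highest of its group, 0.33 apart. Nr1d1 was 1.54-fold lower (log2 fold change -0.62, SE 0.12, limma adjusted p = 0.016). Nr1d2 stood at 9.79, 9.95 and 10.06 in Mock and at 9.32, 9.15 and 9.63 in Ad-Epas1. Its groups were 0.17 apart, with Mock replicate 1 and Ad-Epas1 replicate 3 nearest each other. Nr1d2 was 1.48-fold lower (log2 fold change -0.57, SE 0.14, limma adjusted p = 0.035). The 95% intervals, -0.90 to -0.34 for Nr1d1 and -0.89 to -0.24 for Nr1d2, largely coincide, and the difference between them was not tested. Nr1d1 lost its call without Mock replicate 2 or 3 (both adjusted p = 0.075) or Ad-Epas1 replicate 2 (0.053). Nr1d2 lost it on omission of each array except Ad-Epas1 replicate 3 (0.051 to 0.13).

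**Figure D3:**
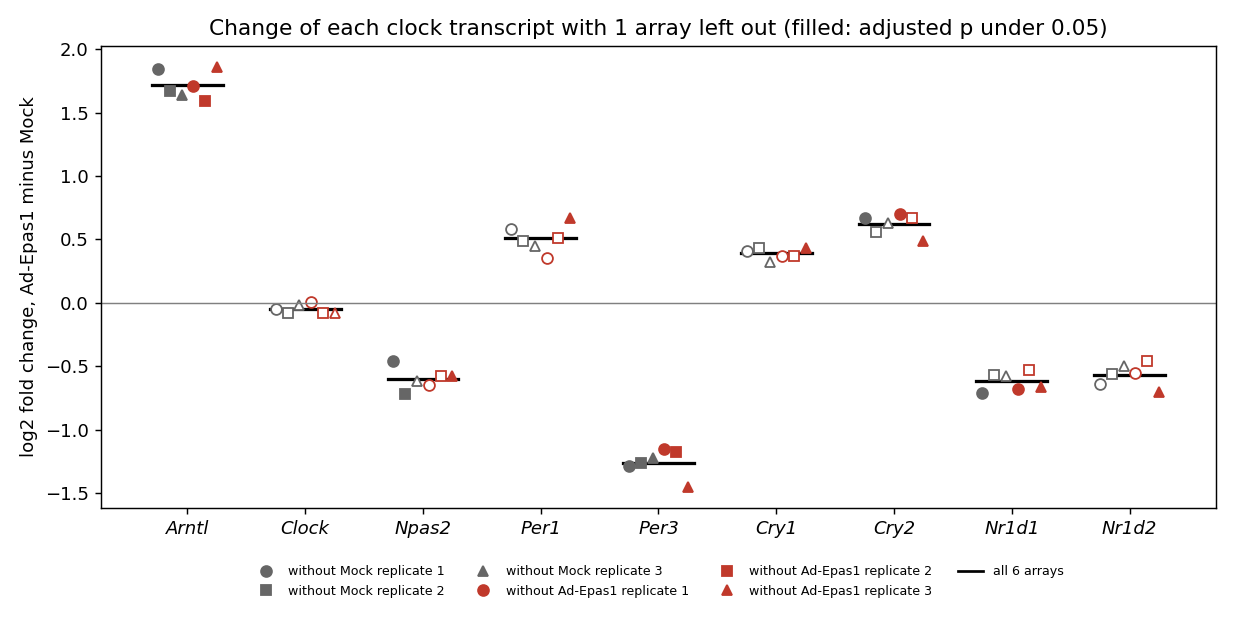
Log2 fold change (Ad-Epas1 minus Mock) of each clock transcript with 1 of the 6 arrays left out, with grey symbols where a Mock array and red symbols where an Ad-Epas1 array was omitted, and black lines for all 6 arrays. Filled symbols have an adjusted p under 0.05: Arntl (1.59 to 1.86) and Per3 (-1.45 to -1.15) are filled throughout, and no called transcript changes sign.

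Accessory loops around the core showed a single called gene. By the test, 1 of 8 measured genes rose and 7 did not pass. Over all genes, 16.3% were called in either direction and 6.57% higher. The median difference of the 8 was 0.22, against 0.05 for all genes. The risen gene was Bhlhe40 (Dec1), whose protein competes for E-boxes and which is known to be induced by low oxygen. It stood at 11.27, 10.94 and 11.04 in Mock and at 11.98, 12 and 11.78 in Ad-Epas1. The groups did not overlap, and the rise was 1.79-fold (log2 fold change 0.84, SE 0.11, limma adjusted p = 0.0053). Its paralogue Bhlhe41 stood at 9.39, 9.33 and 9.38 in Mock and at 10.21, 10.11 and 9.26 in Ad-Epas1. Ad-Epas1 replicate 3, the macrophage-poor array, lay below all Mock arrays for Bhlhe41 and the other 2 above them. The difference of Bhlhe41 was 0.50 (limma adjusted p = 0.20), against 0.79 without replicate 3 (adjusted p = 0.00089).

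The ROR genes, activators at the RORE, did not pass. Rora differed by 0.09 with a 95% interval from -0.06 to 0.24 (limma adjusted p = 0.38). Rorb lay below 6.62, the receptor genes' 95th percentile, on every array, but above their median of 4.34. The difference of Rorb was 0.34 (adjusted p = 0.054), and 0.43 without Ad-Epas1 replicate 2 (adjusted p = 0.049). Ciart, which encodes a repressor of the BMAL1 pair, differed by 0.38 (adjusted p = 0.18), and by 0.55 without Mock replicate 1 (adjusted p = 0.049). Arntl2, the paralogue of Arntl, differed by -0.43 (adjusted p = 0.090), a difference of the opposite sign to that of Arntl. Without Ad-Epas1 replicate 3 the difference of Arntl2 passed (-0.58, adjusted p = 0.0080). Timeless (-0.20) and Tipin (-0.39), a pair of replication fork proteins with a debated clock role, did not pass either, although Tipin did without Mock replicate 1 (-0.51, adjusted p = 0.048).

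Among output genes of the clock, Dbp, Tef and Wee1 fell, and Nfil3 and Noct rose. These 5 of 8 measured genes stand beside 16.3% of all genes called, and the median difference of the 8 was -0.33. Dbp encodes the PAR bZIP activator and is a direct E-box target of the BMAL1 pair. It stood at 10.06, 10.22 and 10.28 in Mock and at 8.13, 8.03 and 8.59 in Ad-Epas1. The gap between the groups was 1.47, wider than that of any member, and Dbp was 3.82-fold lower (log2 fold change -1.93, SE 0.15, limma adjusted p = 0.0012), the 107th largest fall of the 22180 genes. Without Ad-Epas1 replicate 3 the log2 fold change of Dbp was -2.10. The promoter window of Dbp held no E-box, E′-box, D-box or RORE match.

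Tef, a second PAR bZIP gene, stood at 7.64, 7.67 and 7.64 in Mock and at 7.26, 7.2 and 7.39 in Ad-Epas1, and it fell by 0.37 (SE 0.07, limma adjusted p = 0.019). Its other, dimmer probe set differed by -0.12 (adjusted p = 0.38), and omission of replicate 2 or 3 of Mock, or of replicate 1 or 2 of Ad-Epas1, ended the call (adjusted p up to 0.086). Hlf, the remaining PAR bZIP gene, was near the receptor genes' 95th percentile of 6.62 and differed by 0.19 (adjusted p = 0.17). Nfil3 encodes the D-box repressor and is, like Arntl, a known RORE gene. It stood at 9.38, 9.07 and 8.89 in Mock and at 9.94, 10.1 and 10.02 in Ad-Epas1. Nfil3 rose 1.88-fold without overlap (log2 fold change 0.91, SE 0.13, limma adjusted p = 0.0068). Its promoter window shown above, added after its array values were seen, also holds a RORE, as do 6.44% of all promoters.

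Noct, a rhythmic gene for the phosphatase nocturnin, rose 1.68-fold (log2 fold change 0.75, SE 0.11, limma adjusted p = 0.0083), from 8.29, 8.42 and 8.4 in Mock to 9.18, 9.3 and 8.89. Wee1 encodes a kinase that holds back mitosis and is both a clock target and a gene of the cell cycle. It stood at 9.29, 9.9 and 9.92 in Mock and at 8.24, 8.21 and 8.78 in Ad-Epas1. Wee1 was 2.45-fold lower (log2 fold change -1.29, SE 0.22, limma adjusted p = 0.013), and omission of replicate 2 or 3 of Mock, or of replicate 2 of Ad-Epas1, ended its call (adjusted p up to 0.060). Mock replicate 1 was the lowest Mock array for Wee1, and the cell division genes were also lower there, with a median of -0.39 from the Mock mean against 0.22 and 0.18 on replicates 2 and 3. Over all cell division genes the median difference was -2.58, and its part in the fall of Wee1 was not tested. Pdk4 (-0.45) and Tfrc (-0.29), metabolic genes with rhythmic expression in other tissues, did not pass (adjusted p = 0.13 and 0.067). Without Ad-Epas1 replicate 3, Pdk4 did (-0.65, adjusted p = 0.0068).

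**Figure D4:**
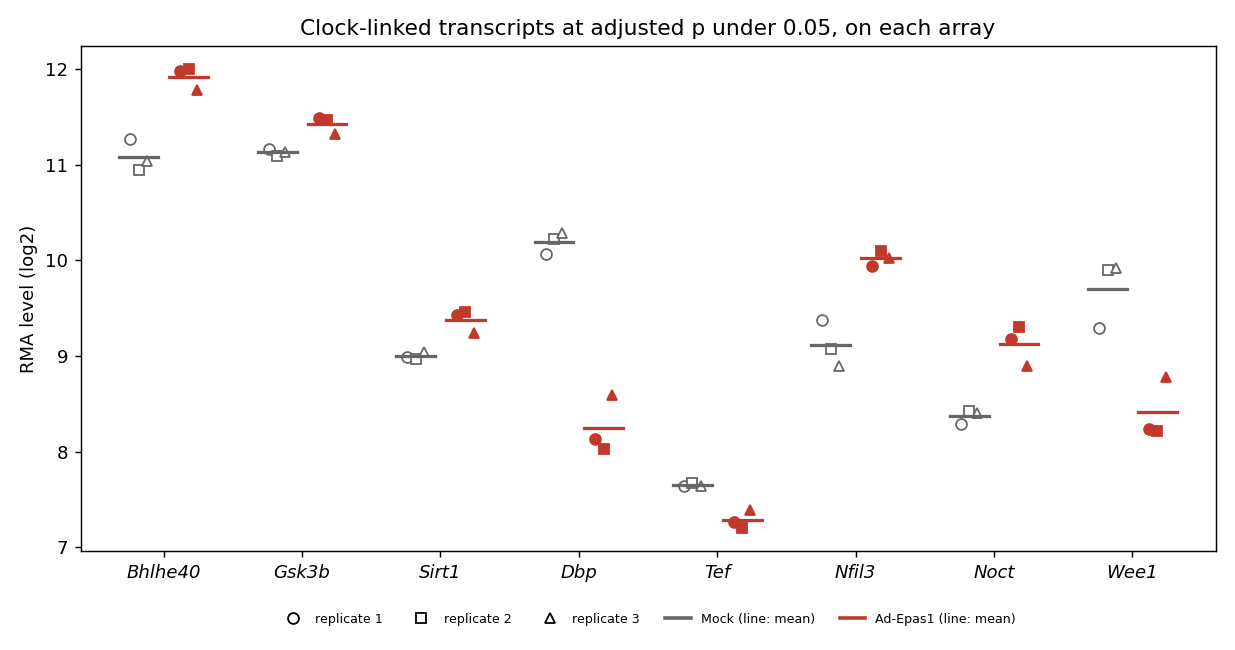
RMA level (log2) on each array for the 8 genes of the accessory, modifier and output lists with an adjusted p under 0.05, with open grey symbols for Mock, filled red for Ad-Epas1 and lines at the means (n = 3). Dbp drops from about 10.19 to 8.25 and Wee1 from 9.70 to 8.41, while Bhlhe40, Nfil3 and Noct lie higher in Ad-Epas1.

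Kinases, ubiquitin ligases and other modifiers of clock proteins were nearly level. The test called 2 of 12 measured genes, both higher, and left 10 uncalled. Over all genes, 16.3% were called in either direction and 6.57% higher. The median difference of the 12 modifiers was 0.01. Sirt1, a deacetylase that acts on the BMAL1 pair, rose by 0.38 on the log2 scale (SE 0.08, limma adjusted p = 0.024), from 8.99, 8.97 and 9.04 in Mock to 9.43, 9.46 and 9.24. Gsk3b, a kinase of several clock proteins, rose 1.23-fold (log2 fold change 0.30, SE 0.07, limma adjusted p = 0.038), from 11.16, 11.09 and 11.13 to 11.49, 11.47 and 11.32. Neither was called when an array other than Ad-Epas1 replicate 3 was omitted (adjusted p up to 0.10 for Sirt1 and 0.14 for Gsk3b) or with the replicate number as a block. Csnk1e, which encodes casein kinase 1 epsilon, a kinase of PER proteins, differed by 0.14 (adjusted p = 0.25), and its relative Csnk1a1 by -0.01 (95% interval -0.15 to 0.13, adjusted p = 0.89). Nampt, whose enzyme makes the NAD that SIRT1 needs and which is a known clock target, differed by -0.23 (adjusted p = 0.078). Fbxw11 (0.26, adjusted p = 0.066) and Usp7 (0.15, adjusted p = 0.34) did not pass with all arrays. Without Ad-Epas1 replicate 3 both did, at 0.32 (adjusted p = 0.020) and 0.26 (adjusted p = 0.038). In that fit 4 of the 12 modifiers were called, and 5390 of all genes.

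**Figure D5:**
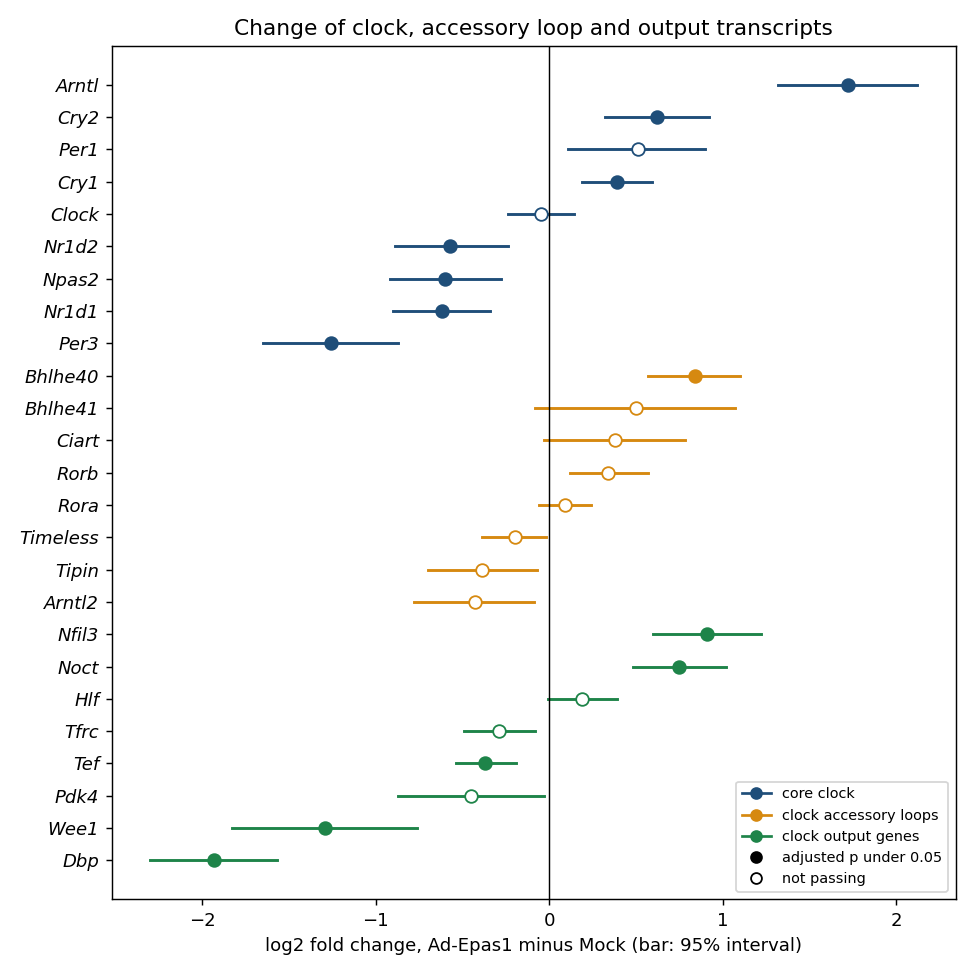
Log2 fold change (Ad-Epas1 minus Mock) with its 95% interval for the core clock, accessory loop and output genes, filled where the adjusted p is under 0.05 and open where it is not. Arntl (1.72) and Dbp (-1.93) lie farthest from 0 on either side, and Clock (-0.05) and Rora (0.09) lie near it.

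Of the wider bHLH-PAS family, 12 genes besides Arntl, Clock and Npas2 were listed and measured, Epas1 among them. Of these, 2 rose (the delivered Epas1 and Npas1), 2 fell (Arnt2 and Ahr) and 8 did not pass, beside 16.3% of all genes called, and the median difference was 0.12. Ahr, the receptor for dioxin and related ligands, which can also pair with BMAL1, stood at 10.31, 10.63 and 10.57 in Mock and at 9.69, 9.18 and 8.3 in Ad-Epas1. Ad-Epas1 replicate 3, low in macrophage transcripts, was the lowest for Ahr, and the 2.72-fold lower mean (log2 fold change -1.44, SE 0.33, limma adjusted p = 0.029) was -1.06 without that array. Omission of any Mock array, or of replicate 2 of Ad-Epas1, ended the call of Ahr (adjusted p up to 0.11). Npas1, a repressor known from neurons, stood at 7, 6.81 and 6.89 in Mock and at 7.21, 7.24 and 7.19 in Ad-Epas1, and it rose by 0.32 (SE 0.07, limma adjusted p = 0.031). The call of Npas1 ended on omission of replicate 2 or 3 of Mock, or of replicate 1 or 2 of Ad-Epas1 (adjusted p up to 0.12). Arnt2 stood at 9.1, 9.39 and 9.43 in Mock and at 7.94, 7.8 and 7.95 in Ad-Epas1 (-1.41, adjusted p = 9.9e-04). Sim2, a repressor of the family, stood at 9.06, 8.96 and 8.86 in Mock and at 9.58, 10.11 and 7.89 in Ad-Epas1. Its Ad-Epas1 arrays lay on both sides of Mock, with replicate 3 lowest, and the difference of 0.24 did not pass (adjusted p = 0.78). Without replicate 3 it was 0.89 (adjusted p = 0.0090).

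Among the 8 members whose groups did not overlap, Mock replicate 1 was the Mock array nearest to Ad-Epas1 for 6, against 51.4% of all 8800 genes without overlap. Ad-Epas1 replicate 3 was the Ad-Epas1 array nearest to Mock for 5, against 48.8% of those genes, so both arrays were also nearest for much of the array as a whole. Npas2 was an exception on both sides, its nearest arrays being Mock replicate 2 and Ad-Epas1 replicate 1.

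Arntl and Per3 spanned the widest ranges of the members over the 6 arrays, 2.14 and 1.55 on the log2 scale. Cry2, at 0.999, fell just short of the span of 1 from which a nearest gene was sought. With each gene centred on its mean over the 6 arrays, the gene with a settled symbol nearest to Arntl was Gclc, which encodes the catalytic subunit of the enzyme that starts glutathione synthesis, at a root mean square difference of 0.072. Gclc stood at 9.85, 9.47 and 9.47 in Mock and at 11.45, 11.64 and 10.92 in Ad-Epas1, so that Mock replicate 1 was the high Mock array and Ad-Epas1 replicate 3 the low one for both genes. The gene nearest to Per3 was Mid1, a ubiquitin ligase gene, at 0.063. Mid1 stood at 10.53, 10.72 and 10.75 in Mock and at 9.08, 9.23 and 9.68 in Ad-Epas1. With 6 arrays in 2 groups, such likeness describes these arrays only.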

How the data were processed

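Labelled cDNA from 300 ng of total RNA per sample was hybridised to 6 Affymetrix arrays, which were grouped by their titles. The deposited values are log2 levels, 1 for each array and probe set, made by the authors; the submitters' processing notes name RMA and Affymetrix Expression Console 1.3.1. RMA equalises the arrays' distributions, which hides a shift common to most genes, and it compresses large changes. For the probe sets, no genome build was stated in the sources used here. Array medians were 6.77 to 6.84, and columns of other samples numbered 0.

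Of 41345 probe sets, 23521 had 1 gene symbol, 1814 several and 16010 none. The probe set with the highest mean represented each of 22180 genes, with no filter on level. 1082 genes had several probe sets, none of them members. The groups were compared with limma 3.58.1 (lmFit, eBayes; R 4.3.3), two-sided, adjusted over all 22180 genes and checked on simulated data. By exact permutation, 3 arrays against 3 reach p = 0.1 at best. The series' text calls the replicates biological without naming separate cultures or animals, so p-values reflect only the spread of these arrays, which may be technical. The members and lists were chosen with earlier results of these data known. Named genes are all members, called genes of the accessory, modifier, output and bHLH-PAS lists, and for each member spanning 1 log2 unit or more the nearest gene. Uncalled genes of these lists were named for their roles, or for a call or sign that changed under an alternative. Alternatives were a replicate block, each array left out, further quantile scaling, median centring, a level filter, other variance priors, array weights, and other handling of probe sets.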

Additional observations from a re-analysis of the deposited data

How the results depend on the processing

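Of 135 repeats of the members' tests under 15 alternatives, 106 kept direction and side of the threshold, 25 lost the call and 3 gained it, all 3 for Per1 (replicate block, without Ad-Epas1 replicate 3, and array weights). Arntl and Per3 were called under all 15, Arntl at 1.59 to 1.96 and Per3 at -1.45 to -1.15. With 1 array left out, the called members numbered 2 to 8, the related genes called 6 to 18 (12 with all arrays) and all genes called 1181 to 5390. Without a shared variance these counts were 2, 5 and 1448. With array weights 24 related genes and 7791 of all genes were called. Above the median level, 5856 of 11090 genes had groups without overlap. Members without overlap numbered 8 under each scaling, level filter and probe set rule tried. Differences that changed sign, none of them called in the fit to all arrays, were those of Clock (-0.08 to 0.01 with 1 array left out), Btrc (-0.14 to 0.06), Usp2 (-0.23 to 0.07), Prkaa1 (-0.02 to 0.07) and Sim2 (-0.22 to 0.89). With a further quantile step Btrc was at 0.02 and Usp2 at 0.04, and with median centring Csnk1a1 was at 0.01 and Btrc at 0.00. Scaling moved the median of all genes between 0.03 and 0.068. The cause of these shifts was not tested.

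Whether the replicate numbers paired the arrays could not be told. Deviations from the group means correlated at 0.34, -0.19 and 0.21 for numbers 1, 2 and 3 (across genes). Between unlike numbers they correlated at -0.33 to 0.27. With 3 arrays per group the deviations cancel within each group, so these correlations depend on each other. With the number as a block, 8 members (4 higher, 4 lower), 9 related genes and 3108 of all genes were called, and Per1 passed (adjusted p = 0.037).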
